A study of Danio rerio with 8 samples.

Results

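Rab GTPases are small membrane switches. Bound to GTP they recruit motors, tethers and other effectors to a transport vesicle, and each member marks its own stretch of the route between the endoplasmic reticulum, the Golgi, endosomes, lysosomes, granules and the cell surface. Exchange factors load them with GTP, GTPase-activating proteins switch them off, and a GDP dissociation inhibitor carries the prenylated protein through the cytosol. In phagocytes they are best known for phagosome maturation, for the release of granules and for receptor recycling. The roles given below were established mainly in mammalian cells.

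The genes described here are the zebrafish genes whose symbol is rab, then a number and optional letters or digits, taken from probe sets annotated with a single symbol. The rule found 76 genes on 79 probe sets, of 19260 symbols and 75212 probe sets in all. By their names, 66 genes encode Rab GTPases themselves. The other 10 (rab11fip1a, rab11fip2, rab11fip3, rab11fip4a, rab11fip4b, rab11fip5b, rab3gap1, rab3gap2, rab3il1 and rab5if) encode proteins named after a Rab and are described apart from the GTPases. The mean level over the 8 arrays reached the limit for testing, a log2 level of 5.52, for 64 genes, of which 54 were GTPases and 10 were the proteins named after a Rab. The 12 genes under it were rab3b, rab3c, rab6ba, rab15, rab25a, rab32b, rab34b, rab36, rab38b, rab38c, rab39ba and rab42a, with mean levels from 2.88 to 5.11, and their differences were not tested. Near-identical copies, such as those of rab1, rab5 and rab11, may share signal between their probe sets, so values of single copies are uncertain to that extent.

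The cells came from the kidneys of zebrafish 60 days after fertilisation, where adult fish make their blood. The 4 groups were myelomonocytes of miR-142-3p double knockout fish, myelomonocytes of wild-type fish, whole kidney marrow without erythrocytes of double knockout fish, and the same marrow of wild-type fish. Each group had 2 samples, described by the submitters as independent, each from 4 kidneys and each on 1 Affymetrix array. miR-142-3p is a microRNA abundant in blood cells. The sources used here do not give the knockout alleles, the gate or transgene behind the myelomonocyte sort, or the scan order. No probe set carried the symbol of mir142a or mir142b, so the arrays hold no check of the knockout itself.

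Across the 13774 genes tested, r was 0.988 to 0.992 between replicate arrays and 0.907 to 0.974 between groups. Markers of other cells moved with the comparisons, and their part in the results below was not tested. Of the neutrophil markers, 8 of 10 were on the array, 6 of these were higher in myelomonocytes than in marrow in each genotype, and 0 differed by genotype in either population; their log2 summed level was 15.82 to 15.83 in knockout and 15.78 to 15.79 in wild-type myelomonocytes. Monocyte and macrophage markers, with 5 of 8 on the array, summed to 10.48 to 10.99 in knockout and 11.36 to 11.39 in wild-type myelomonocytes, both under the marrow groups (12.11 to 12.25 in knockout and 12.18 to 12.22 in wild type). Single monocyte and macrophage markers went both ways between the populations, with 1 of 5 higher and 4 lower in knockout myelomonocytes and 1 higher and 2 lower in wild-type myelomonocytes, and 2 of 5 fell in knockout against wild-type myelomonocytes. Erythroid markers summed to 13.80 to 13.84 in knockout and 14.41 to 14.65 in wild-type myelomonocytes, and 8 of 10 fell in the knockout. In the marrow, named above as without erythrocytes, they summed to 15.23 to 15.41 in knockout and 15.07 to 15.25 in wild-type fish. Erythroid RNA was thus present in the marrow samples. Kidney tubule markers summed to 12.28 to 12.61 in knockout and 11.87 to 12.29 in wild-type myelomonocytes, and 4 of 8 rose in the knockout. Of the other lists, 1 of 5 T cell markers rose and 1 of 3 endothelial markers fell in knockout myelomonocytes. In marrow, 0 of 10 erythroid, 1 of 8 kidney tubule, 1 of 5 B cell, 2 of 5 monocyte and macrophage and 2 of 5 tested T cell markers fell in the knockout. In bulk samples such as these, fewer cells of a type and less RNA per cell cannot be told apart.

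The first comparison set knockout against wild-type myelomonocytes. In the knockout 8 Rab-named genes rose and 1 fell, 9 of the 64 tested, in a comparison that called 12.4% of all genes tested (limma, Benjamini-Hochberg adjusted p under 0.05). The genes that rose were rab23, rab5b, rab3db, rab14, rab3da, rab3aa, rab11a and the Rab11 effector gene rab11fip5b, and the gene that fell was rab11ba. The share of Rab-named genes called (14.1%) lay near that of all genes. By direction, 12.5% of the 64 were higher and 1.56% lower, against 6.85% and 5.51% of all genes tested. The median log2 difference was 0.06 over the 54 GTPases and 0.01 over all genes tested. Knockout and wild-type arrays did not overlap for 40 of the 64 genes (62.5%), against 54.8% of all genes. The plot of genotype differences shows all 64 genes by role.

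**Figure D1:**
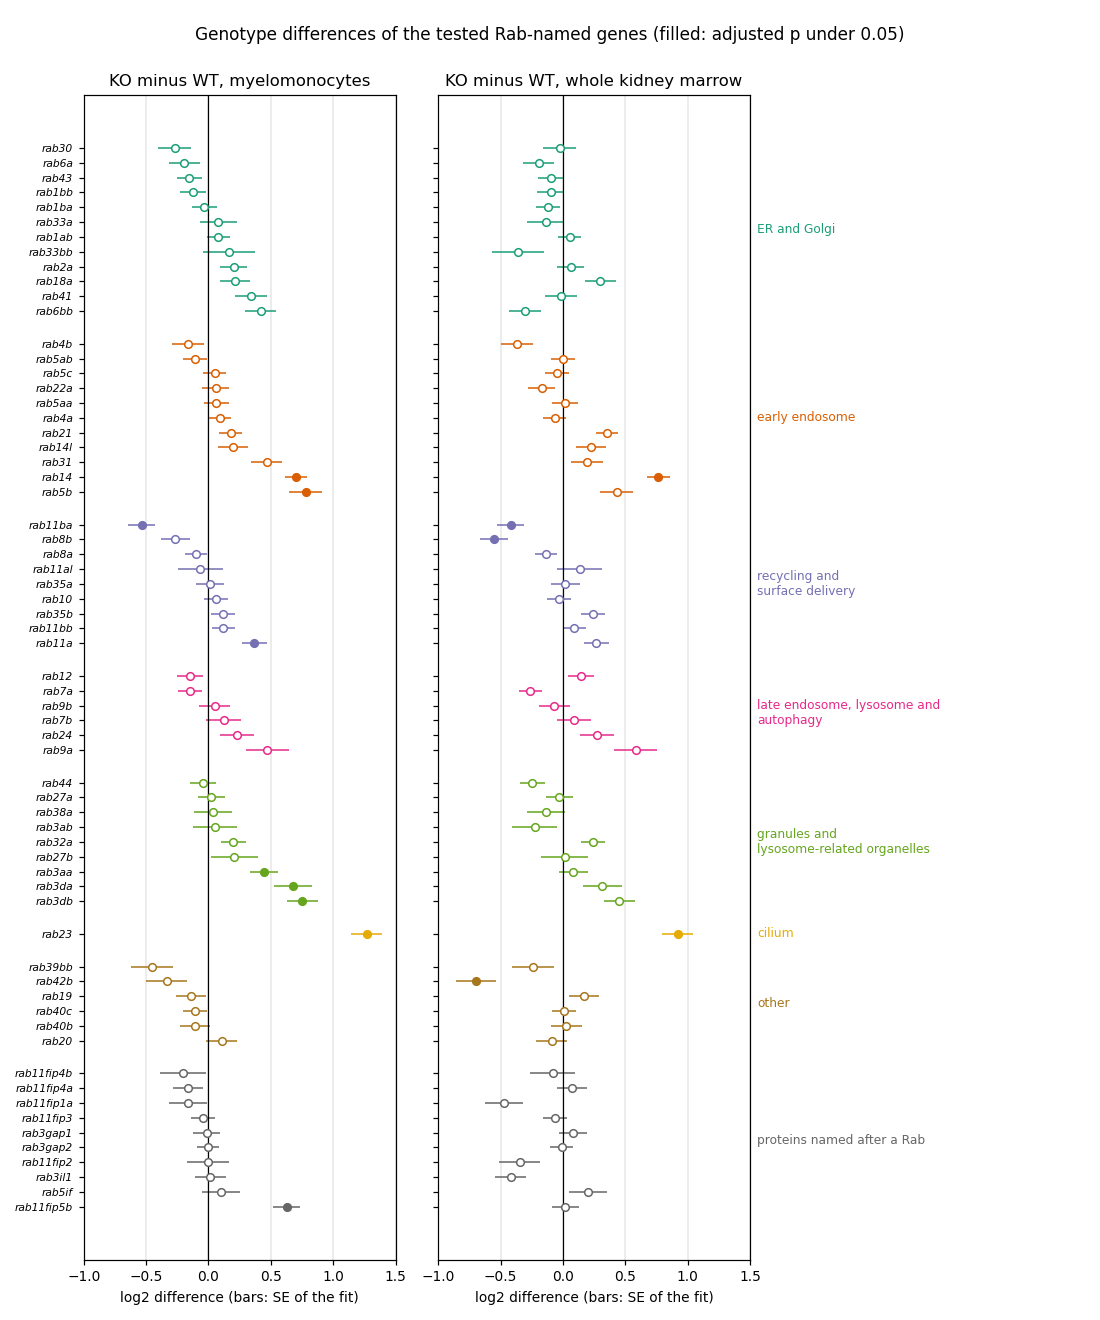
Log2 difference between knockout and wild type (x axis) for each of the 64 tested Rab-named genes, in myelomonocytes (left) and whole kidney marrow (right), grouped and coloured by role; bars are the standard error of the fit and filled points have an adjusted p under 0.05. Most points lie near 0 in both panels, and rab23 and rab14 are filled and above 0 in both.

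Among the Rabs of early endosomes, rab14 and rab5b rose and the other 9 of 11 tested members were not called. Rab14 works between the trans-Golgi network and early endosomes and is found on phagosomes. Its log2 level was 8.40 and 8.29 in knockout myelomonocytes, against 7.66 and 7.63 in wild-type myelomonocytes. The knockout arrays were both above the wild-type arrays, by 0.70 ± 0.09 on the log2 scale (SE), or 1.63-fold (limma, adjusted p = 0.00301). Its close copy rab14l had 10.02 and 9.90 in knockout and 9.63 and 9.89 in wild-type myelomonocytes, a log2 difference of 0.20 ± 0.12 (adjusted p = 0.329).

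Rab5 directs fusion of endocytic vesicles with early endosomes and the first steps of phagosome maturation, and 4 genes encode it here. The level of rab5b was 11.34 and 11.38 in knockout and 10.77 and 10.39 in wild-type myelomonocytes. These arrays did not overlap, and the difference was 0.78 ± 0.13 (1.72-fold, adjusted p = 0.00916). The log2 differences of the other rab5 genes were 0.06 ± 0.10 for rab5aa, -0.11 ± 0.10 for rab5ab and 0.05 ± 0.09 for rab5c, and none of the 3 was called, as deposited or after quantile normalization or centring of the arrays. The levels of rab5aa were 10.81 and 10.60 in knockout and 10.60 and 10.68 in wild-type myelomonocytes, which overlapped. Of the remaining members, rab31, which acts between the trans-Golgi network and endosomes, had a difference of 0.47 ± 0.13 with an adjusted p just over the threshold at 0.0508, a gene named here after its value was seen.

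Rabs of granules and lysosome-related organelles, some of which dock and release secretory granules, had 3 called members of 9 tested. All 3 were higher in knockout myelomonocytes, and 8 of 9 differences were above 0 (median 0.20). Of all genes tested, 6.85% were called higher and 51.3% of differences were above 0. Above 0 were also 9 of the 11 early endosome Rabs and 64.8% of the 54 GTPases, so this lean was not particular to the granule group. The 3 were Rab3 genes, the GTPases of regulated exocytosis, of which 4 of 6 were tested. The level of rab3db, a copy of the Rab3D gene known from exocrine and mast cell granules, was 9.96 and 9.88 in knockout and 9.25 and 9.08 in wild-type myelomonocytes. The arrays were apart by 0.75 ± 0.12 (1.68-fold, adjusted p = 0.0086). The second copy, rab3da, had 7.76 and 7.31 in knockout and 6.90 and 6.81 in wild-type myelomonocytes, a difference of 0.68 ± 0.16 (1.60-fold, adjusted p = 0.0283). Its knockout arrays stood further from each other than any pair of the other groups did.

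The level of rab3aa, a copy of the Rab3A gene of synaptic vesicle release, was 7.50 and 7.77 in knockout and 7.19 and 7.20 in wild-type myelomonocytes. The difference was 0.44 ± 0.11 (1.36-fold, adjusted p = 0.0413). The fourth gene, rab3ab, had 10.58 and 10.19 in knockout and 10.32 and 10.35 in wild-type myelomonocytes, which overlapped (0.05 ± 0.18, adjusted p = 0.889). The call of rab3db was lost without replicate 2 of the wild-type myelomonocytes (adjusted p = 0.0582), and that of rab3da without either wild-type array (0.0903 and 0.128), without replicate 1 of the knockout (0.0899) and in a fit of the compared arrays alone (0.0655). The call of rab3aa was lost without any array but replicate 1 of the knockout myelomonocytes (adjusted p = 0.0623 to 0.156) and under 5 other settings, quantile normalization among them (0.0519 to 0.108).

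The other granule Rabs were not called by genotype. rab27a, which docks granules at the membrane and whose human counterpart is mutated in Griscelli syndrome, had 11.34 and 11.32 in knockout and 11.25 and 11.36 in wild-type myelomonocytes. Its arrays overlapped, and the difference was 0.02 ± 0.11. rab27b differed by 0.21 ± 0.19, rab32a, which serves lysosome-related organelles and macrophage defence, by 0.20 ± 0.10, rab38a, its relative from melanosomes, by 0.04 ± 0.15, and rab44, an unusually large Rab of secretory granules and lysosomes, by -0.04 ± 0.10.

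**Figure D2:**
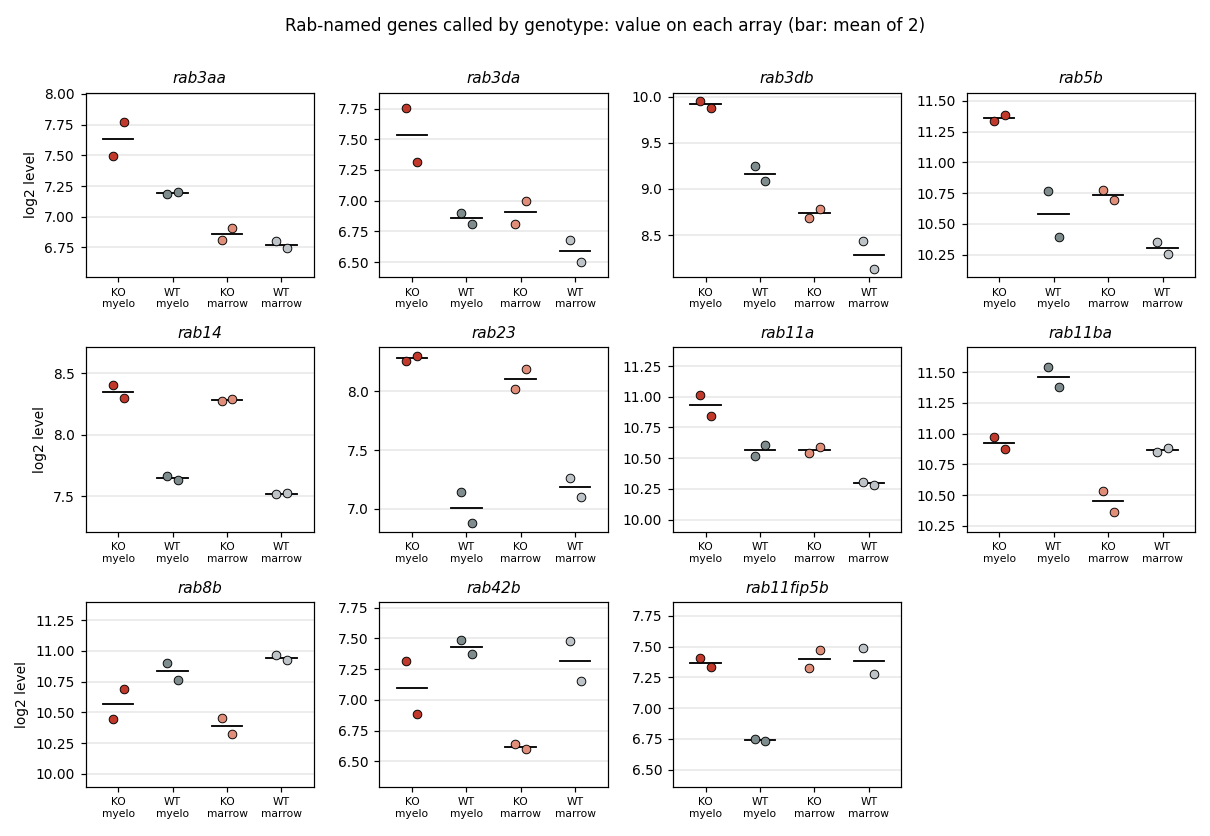
Log2 level (y axis, own scale per gene) of the 11 Rab-named genes called in a genotype comparison, on each of the 2 arrays of the 4 groups (points) with the group mean (bars), knockout left of wild type within each population. rab14 and rab23 are higher in the knockout in both populations without overlap, and rab11ba is lower in both.

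Among Rabs of recycling and surface delivery, rab11a rose and rab11ba fell in knockout myelomonocytes, and 7 of 9 tested members were not called. Rab11 proteins return receptors from recycling endosomes to the surface, and 4 genes encode them here. The level of rab11a was 11.02 and 10.85 in knockout and 10.52 and 10.61 in wild-type myelomonocytes, a difference of 0.37 ± 0.10 (1.29-fold, adjusted p = 0.0487). The level of rab11ba was 10.97 and 10.87 in knockout and 11.54 and 11.38 in wild-type myelomonocytes, a difference of -0.54 ± 0.11 (1.45-fold lower, adjusted p = 0.0168). Neither gene's arrays overlapped, and the 2 genes differed in direction. rab11bb, with 11.09 and 10.96 in knockout and 10.91 and 10.90 in wild-type myelomonocytes, differed by 0.12 ± 0.09, and rab11al by -0.07 ± 0.18, neither of them called. The call of rab11a was lost without any array but replicate 2 of the knockout myelomonocytes (adjusted p = 0.0755 to 0.212) and under 6 other settings, centring of the arrays among them (0.0516 to 0.13). The call of rab11ba was lost without wild-type replicate 1 (0.102) or knockout replicate 2 (0.065).

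The Rab11 effectors include the rab11fip genes, whose proteins link Rab11 to motors and membranes. The level of rab11fip5b was 7.41 and 7.33 in knockout and 6.75 and 6.73 in wild-type myelomonocytes. The difference was 0.63 ± 0.11 (1.54-fold, adjusted p = 0.00991), and the call was lost without wild-type replicate 1 (0.053) or 2 (0.0583). The other 9 proteins named after a Rab differed by -0.20 to 0.10 and were not called. Among them were rab3gap1 and rab3gap2, the subunits of the Rab3 GTPase-activating complex, with differences of -0.01 ± 0.11 and 0.00 ± 0.09.

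rab23, whose mouse counterpart restrains Hedgehog signalling and is tied to the primary cilium, had the largest difference among the 64 genes. Its level was 8.26 and 8.30 in knockout and 7.14 and 6.88 in wild-type myelomonocytes. The arrays were apart by 1.27 ± 0.12 (2.41-fold, adjusted p = 0.00106). The other gene placed in the cilium group by its Rab number, rab34b, was under the limit for testing.

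None of the 12 tested Rabs of the endoplasmic reticulum and Golgi and none of the 6 of late endosomes, lysosomes and autophagy was called in knockout myelomonocytes by limma at an adjusted p under 0.05, with 2 of the 12 and 1 of the 6 at an unadjusted p under 0.05, as were 15 of the 64 and 27.3% of all genes. The Golgi and endoplasmic reticulum members differed by -0.27 to 0.42 and the late endosome members by -0.15 to 0.47. The highest late endosome member was rab9a, named here after its value was seen. rab7a, which drives fusion of late endosomes and phagosomes with lysosomes, had 10.31 and 10.18 in knockout and 10.39 and 10.40 in wild-type myelomonocytes. The knockout arrays were both lower, but the difference of -0.15 ± 0.09 was not called (adjusted p = 0.354). rab7b differed by 0.12 ± 0.14 and rab20, a Rab of endosomes and phagosomes, by 0.11 ± 0.12, with overlapping arrays for rab20 (7.36 and 7.36 in knockout, 7.42 and 7.09 in wild type). The Golgi gene rab6bb (0.42 ± 0.13, adjusted p = 0.0706) was called after quantile normalization (0.0381) and without replicate 2 of the knockout myelomonocytes (0.0309).

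The second comparison set knockout against wild-type whole kidney marrow. Of the 64 genes, rab23 and rab14 rose and rab42b, rab8b and rab11ba fell. These 5 genes are 7.81% of the 64, and 9.28% of all genes tested were called (4.73% higher and 4.55% lower). After quantile normalization, or after centring each array on its median, the split was 4 higher and 2 lower, and the share of higher calls among all genes called was 59.5% after quantile normalization and 58.5% after centring, against 50.9% as deposited. The median log2 difference was 0.01 over the 54 GTPases as over all genes. The 6 tested Rabs of late endosomes, lysosomes and autophagy, none of them called, differed by -0.26 (rab7a) to 0.58 (rab9a). Arrays of the genotypes did not overlap for 36 of the 64 genes (56.2%), against 56.7% of all genes.

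The level of rab14 was 8.28 and 8.29 in knockout and 7.52 and 7.52 in wild-type marrow, a difference of 0.77 ± 0.09 (1.70-fold, adjusted p = 0.00324). The level of rab23 was 8.02 and 8.19 in knockout and 7.26 and 7.10 in wild-type marrow, a difference of 0.92 ± 0.12 (1.90-fold, adjusted p = 0.00527). For both genes every knockout array lay above every wild-type array, as in myelomonocytes. Both calls held in both populations under all 18 alternatives tried, as did that of rab5b in myelomonocytes. Not all of these could move the differences. None of these genes has a second probe set, so the probe set treatments left their values unchanged. Leaving out an array of the other population does not alter a difference either. rab11ba had 10.53 and 10.36 in knockout and 10.85 and 10.88 in wild-type marrow, a difference of -0.42 ± 0.11 (1.34-fold lower, adjusted p = 0.0478). This call was lost without any 1 of the 8 arrays (adjusted p = 0.0513 to 0.248) and under 5 other settings, both rescalings among them (0.0533 to 0.0701). Without a myelomonocyte array the difference itself stayed at -0.42, since these arrays do not enter it.

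The level of rab8b, a Rab of delivery to the plasma membrane, was 10.46 and 10.33 in knockout and 10.96 and 10.93 in wild-type marrow. The arrays did not overlap, and the difference was -0.55 ± 0.12 (1.47-fold lower, adjusted p = 0.0249). In myelomonocytes rab8b had 10.45 and 10.69 in knockout and 10.90 and 10.76 in wild type, also without overlap, and the difference of -0.27 ± 0.12 was not called (adjusted p = 0.183). rab42b had 6.64 and 6.60 in knockout and 7.48 and 7.15 in wild-type marrow, a difference of -0.70 ± 0.16 (1.62-fold lower, adjusted p = 0.0367). In myelomonocytes its difference was -0.33 ± 0.16 (adjusted p = 0.231). The rab8b call was lost without any 1 of the 4 marrow arrays (adjusted p = 0.072 to 0.148), and the rab42b call without any 1 of the marrow arrays or either wild-type myelomonocyte array (0.0541 to 0.198).

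Genes called in myelomonocytes had the following values in marrow. rab3db had 8.69 and 8.78 in knockout and 8.44 and 8.14 in wild-type marrow (0.45 ± 0.12, adjusted p = 0.0631), and it was called after quantile normalization, after centring and in 3 other settings, with an adjusted p down to 0.0257. rab5b had 10.78 and 10.69 in knockout and 10.35 and 10.25 in wild-type marrow (0.43 ± 0.13, adjusted p = 0.0858), and it was called with an intensity trend (0.0346) and without either wild-type myelomonocyte array (0.049). For both, the knockout arrays stood above the wild-type arrays in marrow too. The differences were 0.31 ± 0.16 for rab3da, 0.27 ± 0.10 for rab11a, 0.08 ± 0.11 for rab3aa and 0.02 ± 0.11 for rab11fip5b, and none of these was called. The marrow levels of rab11fip5b were 7.33 and 7.47 in knockout and 7.49 and 7.28 in wild type, which overlapped.

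Whether the genotype difference itself differed between myelomonocytes and marrow was tested with an interaction contrast. None of the 64 genes was called by limma, and 0.276% of all genes tested were; at an unadjusted p under 0.05 the counts were 3 of 64 (4.69%) and 14% of all genes. The 3, named after their values were seen where no rule had named them, were rab6bb, a Golgi Rab (0.72 ± 0.18, adjusted p = 0.154), rab11fip5b (0.61 ± 0.15, adjusted p = 0.157) and rab3il1, which encodes a Rab exchange factor (0.43 ± 0.18, adjusted p = 0.328). rab6bb had 7.48 and 7.15 in knockout and 6.85 and 6.95 in wild-type myelomonocytes, against 6.49 and 6.58 in knockout and 6.89 and 6.78 in wild-type marrow. Its arrays were thus higher in the knockout in one population and lower in the other, each without overlap. Arrays of the genotypes also did not overlap for 54.8% of all genes in myelomonocytes and 56.7% in marrow. The 3 genes called in both genotype comparisons (rab14, rab23 and rab11ba, 4.69% of 64, against 4.6% of all genes) kept the same sign in both. Across the 64 genes, the differences in the 2 populations, which share no arrays, correlated at r = 0.73 (Spearman's rho 0.63), and at r = 0.60 (rho 0.46) across all genes tested. Deviations of same-numbered arrays also correlated between the populations, at r = 0.27 in knockout and 0.41 in wild-type fish, so the arrays of the 2 populations may not be independent, and the part of this in the correlation was not tested. They had the same sign for 65.6% of the 64 and 65% of all genes. Genes are not independent replicates, and these values are given as a description.

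Myelomonocytes were then set against whole kidney marrow within each genotype. Granule and lysosome-related Rabs made up the group with the highest medians in both genotypes among those with more than 1 tested gene, at 0.75 in knockout and 0.55 in wild-type fish, against 0.03 and 0.00 over all genes. Of its 9 tested members, 7 were higher in knockout and 6 in wild-type myelomonocytes, and none was lower. Over the 64 Rab-named genes, 23 were higher and 4 lower in knockout myelomonocytes, where 44.1% of all genes were called, 21.5% higher and 22.6% lower. In wild-type fish 14 were higher and 4 lower, where 35.6% of all genes were called, 15.5% higher and 20.1% lower. Of the 15 genes called in both genotypes (27.6% of all genes), 12 were higher (11.6% of all genes) and 3 lower (15.8%) in both. Early endosome Rabs had 6 of 11 higher in knockout and 1 of 11 in wild-type fish, recycling Rabs 3 and 2 of 9, Rabs of the endoplasmic reticulum and Golgi 2 and 1 of 12, and Rabs of late endosomes 0 of 6. Marker lists differed between the populations as well: of the 10 erythroid markers on the array 10 were lower in knockout and 8 in wild-type myelomonocytes, and of the 5 B cell markers 5 were lower in each genotype. Of the 5 tested T cell markers 4 were lower in knockout and 5 in wild-type myelomonocytes, and of the 4 thrombocyte markers 2 in each. Kidney tubule markers were higher for 7 of 8 and lower for 1 in knockout myelomonocytes, the genotype with more Rab-named genes called higher, and higher for 0 and lower for 1 in wild-type myelomonocytes; in marrow they summed to 11.21 to 11.66 in knockout and 11.78 to 11.88 in wild-type fish. Endothelial markers were higher for 2 of 3 in knockout and 3 of 3 in wild-type myelomonocytes. Their part in the Rab differences was not tested.

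**Figure D3:**
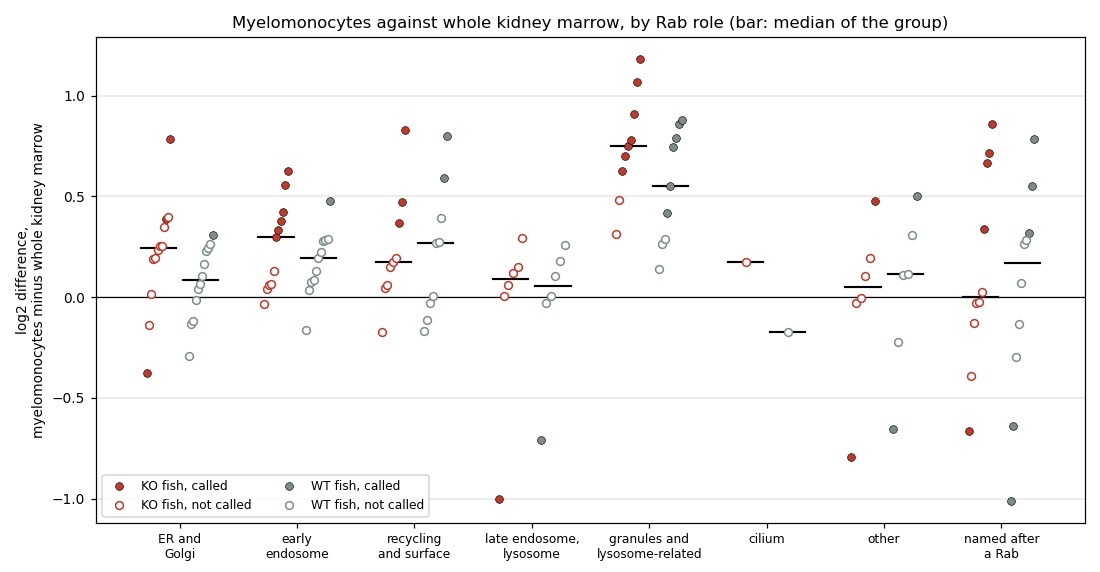
Log2 difference of myelomonocytes minus whole kidney marrow (y axis) for each tested Rab-named gene by role (x axis), in knockout fish (red) and wild-type fish (grey); filled points have an adjusted p under 0.05 and bars are group medians. All 9 tested granule and lysosome-related Rabs, of 14 on the array, lie above 0 in both genotypes, as do 10 of 11 early endosome Rabs. Among the 9, rab38a was not called in either genotype, and its mean level lay under the testing limit only among the marrow groups. It thus passed the filter through the myelomonocyte groups, and its place above 0 rests on marrow values near the limit. The other members on the array were under the limit and have no point. Of the 64 genes 79.7% in knockout and 73.4% in wild-type fish lie above 0, against 52.7% and 50.2% of all genes tested. The lowest point of the GTPases, at -1.001, is rab12 in knockout fish.

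rab3db had the highest difference of the 64 genes, myelomonocytes minus marrow, in both genotypes, with 9.96 and 9.88 in myelomonocytes and 8.69 and 8.78 in marrow of knockout fish (1.18 ± 0.12, adjusted p = 0.000275). In wild-type fish it had 9.25 and 9.08 in myelomonocytes and 8.44 and 8.14 in marrow (0.88 ± 0.12, adjusted p = 0.00147). No array of myelomonocytes overlapped one of marrow. rab3ab had 10.58 and 10.19 in knockout myelomonocytes, against 9.29 and 9.35 in knockout marrow, and 10.32 and 10.35 in wild-type myelomonocytes, against 9.79 and 9.30 in wild-type marrow. Its differences were 1.07 ± 0.18 in knockout and 0.79 ± 0.18 in wild-type fish (adjusted p = 0.00213 and 0.0115). rab3aa differed by 0.78 ± 0.11 in knockout and 0.42 ± 0.11 in wild-type fish, and rab3da by 0.63 ± 0.16 and 0.27 ± 0.16, of which the last was not called as deposited (adjusted p = 0.214) but was after quantile normalization (0.42, adjusted p = 0.0359). In wild-type fish the rab3ab call was lost without replicate 2 of myelomonocytes (0.0544) or of marrow (0.0637), and the rab3aa call without any 1 of the 4 arrays compared (0.0747 to 0.101). The knockout call of rab3da was lost without replicate 1 of myelomonocytes (0.0526) or of marrow (0.0757).

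rab27a was at 11.34 and 11.32 in myelomonocytes and 10.48 and 10.36 in marrow of knockout fish, and at 11.25 and 11.36 in myelomonocytes and 10.34 and 10.56 in marrow of wild-type fish. The population differences were 0.91 ± 0.11 in knockout and 0.86 ± 0.11 in wild-type fish (adjusted p = 0.000453 and 0.000877), in a gene with a genotype difference near 0. rab32a differed by 0.70 ± 0.10 in knockout and 0.75 ± 0.10 in wild-type fish, and rab44 by 0.75 ± 0.10 and 0.55 ± 0.10. All 6 calls of rab27a, rab32a and rab44 held under every alternative tried. rab27b (0.48 ± 0.19 and 0.29 ± 0.19) and rab38a (0.31 ± 0.15 and 0.14 ± 0.15) were not called in either genotype as deposited. rab27b was called in knockout fish after quantile normalization, with the replicate number as a block and without replicate 2 of the knockout myelomonocytes, with an adjusted p down to 0.00408.

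**Figure D4:**
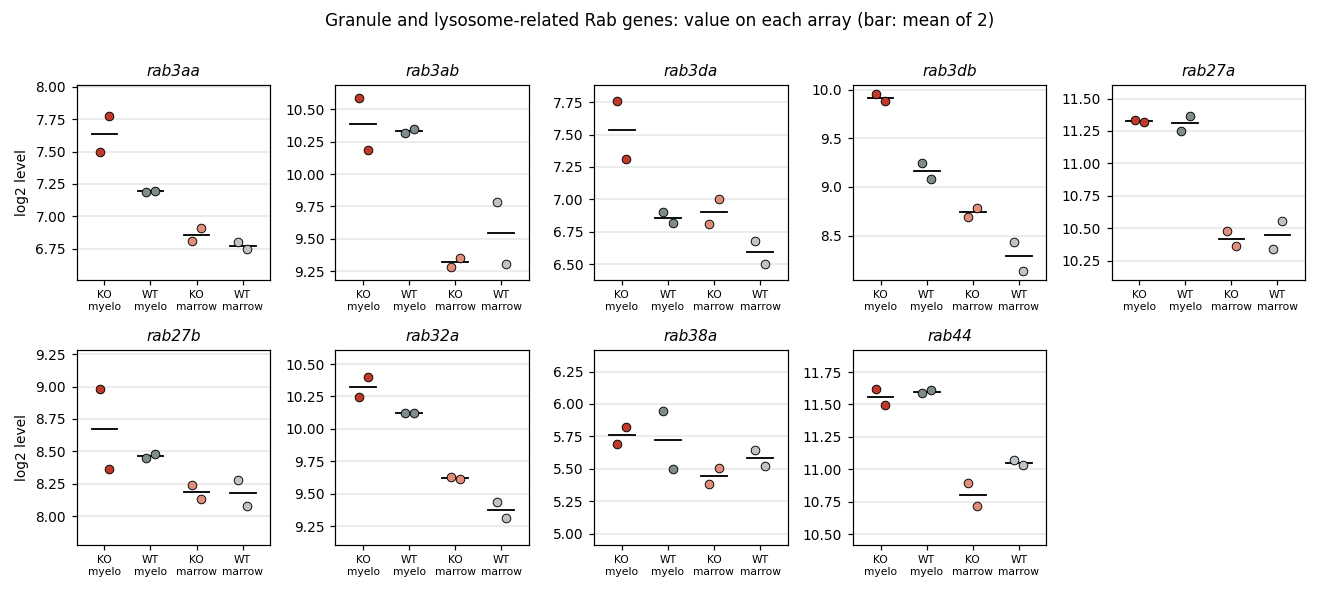
Log2 level (y axis, own scale per gene) of the 9 tested Rab genes of granules and lysosome-related organelles on each of the 2 arrays per group (points; bars are group means), knockout left of wild type within each population. rab3ab, rab3db, rab27a, rab32a and rab44 are among the genes higher on every myelomonocyte array than on any marrow array. rab3aa, rab3da and rab3db are higher in knockout than in wild-type myelomonocytes.

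Outside the granule group, rab11bb and several Rab11 effector genes also differed between the populations. rab11bb had 11.09 and 10.96 in myelomonocytes and 10.18 and 10.21 in marrow of knockout fish (0.83 ± 0.09), and 10.91 and 10.90 in myelomonocytes and 10.08 and 10.13 in marrow of wild-type fish (0.80 ± 0.09), with no overlap. Its other probe set gave 0.58 and 0.69, both called. rab11ba was higher in myelomonocytes by 0.47 ± 0.11 in knockout and 0.59 ± 0.11 in wild-type fish, the knockout call being lost without replicate 2 of the knockout marrow (adjusted p = 0.0625). rab11fip1a was higher by 0.86 ± 0.15 and 0.55 ± 0.15 and rab11fip4b by 0.67 ± 0.18 and 0.79 ± 0.18, while rab11fip2 was lower, with differences of -0.67 ± 0.17 in knockout and -1.01 ± 0.17 in wild-type fish. Members of 1 effector family thus lay on both sides of 0. The wild-type call of rab11fip1a was lost without replicate 2 of myelomonocytes or either marrow array (0.0733 to 0.129), that of rab11fip4b without replicate 2 of myelomonocytes (0.0746) or replicate 1 of marrow (0.0709), and in knockout fish those of rab11fip4b and rab11fip2 each without 2 arrays (0.0961 and 0.119 without replicate 2 of either population for rab11fip4b; 0.0714 without myelomonocyte replicate 2 and 0.0841 without marrow replicate 1 for rab11fip2).

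The GTPases that were lower in myelomonocytes were rab12, rab40b and rab18a. rab12, which serves degradation of the transferrin receptor, had 7.005 and 6.93 in myelomonocytes and 7.93 and 8.005 in marrow of knockout fish (-1.001 ± 0.10, adjusted p = 0.000248). In wild-type fish it had 7.20 and 7.03 in myelomonocytes and 7.88 and 7.77 in marrow (-0.71 ± 0.10, adjusted p = 0.00168). rab40b, a Rab with a SOCS box that joins a ubiquitin ligase, was lower as well, with differences of -0.79 ± 0.12 in knockout and -0.66 ± 0.12 in wild-type fish. No myelomonocyte array of either gene reached a marrow array. rab18a, a Rab of lipid droplets and the endoplasmic reticulum, was called lower in knockout fish (-0.38 ± 0.12, adjusted p = 0.0364), a call lost without knockout replicate 2 of either population or either wild-type myelomonocyte array (0.0514 to 0.202) and under 3 other settings (0.0508 to 0.0694), and its wild-type difference of -0.29 ± 0.12 was not called.

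In the fit reported, some genes were called between the populations in a single genotype, which does not show that the genotypes differ. Each of these values also shares arrays with the genotype comparisons. rab6bb was higher in myelomonocytes of knockout fish (0.79 ± 0.13, adjusted p = 0.00177) and differed by 0.06 ± 0.13 in wild-type fish. rab11fip5b was lower in myelomonocytes of wild-type fish (-0.64 ± 0.11, adjusted p = 0.0032) and differed by -0.03 ± 0.11 in knockout fish; the wild-type myelomonocyte arrays enter both this value and its genotype difference. rab5b was higher in myelomonocytes of knockout fish (0.63 ± 0.13, adjusted p = 0.00607) and differed by 0.28 ± 0.13 in wild-type fish (adjusted p = 0.134), where it was called without replicate 2 of the myelomonocytes (0.47, adjusted p = 0.0381). The differences between the genotypes in these values are the interaction contrasts, which were not called for rab6bb or rab11fip5b (above) or for rab5b (0.35 ± 0.19, adjusted p = 0.459). rab11a (0.37 ± 0.10, adjusted p = 0.018) and rab5aa (0.33 ± 0.10, adjusted p = 0.0303) were also higher in myelomonocytes of knockout fish. Both calls were lost without replicate 1 of the knockout myelomonocytes or either knockout marrow array (0.061 to 0.0846 for rab11a and 0.0926 to 0.135 for rab5aa) and with the compared arrays alone (0.051 and 0.0743). In wild-type fish they differed by 0.27 ± 0.10 and 0.29 ± 0.10 and were not called in the fit reported. There rab11a was called with array weights (0.0455) and with an intensity trend (0.025), and rab5aa with both (0.0383 and 0.0229) and without either knockout myelomonocyte array (0.0399). rab42b was called higher in myelomonocytes of knockout fish only (0.48, limma adjusted p = 0.0433), and 9 of 18 alternatives lost this call. The knockout marrow arrays enter both this value and its called genotype difference in marrow.

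Genes that switch or read Rabs were followed as 4 lists of exchange factors, GTPase-activating proteins, effectors and tethers, and prenylation and membrane extraction factors. In myelomonocytes 13 of the 130 tested rose and 4 fell in the knockout, and in marrow 9 rose and 4 fell. Of all genes 12.4% were called in myelomonocytes (6.85% higher and 5.51% lower) and 9.28% in marrow (4.73% higher and 4.55% lower). The medians over the 130 were 0.04 and 0.01. The lists were not tested as sets. Among GTPase-activating proteins 5 of 32 rose in myelomonocytes, and in marrow 4 rose and 1 fell. tbc1d2, which acts on Rab7, had 10.82 and 10.89 in knockout and 9.62 and 9.81 in wild-type myelomonocytes (1.14 ± 0.10, adjusted p = 0.000709), and 9.72 and 9.81 in knockout and 8.57 and 8.59 in wild-type marrow (1.18 ± 0.10, adjusted p = 0.0009). usp6nl, which acts on Rab5, had 9.17 and 9.02 in knockout and 8.08 and 8.16 in wild-type myelomonocytes (0.98 ± 0.10), and its marrow difference was 0.76 ± 0.10. No knockout array of either gene overlapped a wild-type array of the same population. tbc1d7 (0.52 ± 0.14 and 0.63 ± 0.14) and tbc1d8b (0.46 ± 0.11 and 0.44 ± 0.11) also rose in both, and tbc1d2b fell in marrow (-0.55 ± 0.10). Leaving out 1 array ended the calls of tbc1d7 without any but knockout replicate 2 of myelomonocytes there (adjusted p = 0.0609 to 0.189) and without any 1 of the 4 marrow arrays in marrow (0.0674 to 0.172). It ended those of tbc1d8b without any 1 of the 4 arrays compared in myelomonocytes (0.0595 to 0.176) and any 1 of the 8 in marrow (0.0503 to 0.212), and that of tbc1d2b without either wild-type marrow array or replicate 2 of knockout marrow (0.0747 to 0.0922).

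Among exchange factors 5 of 46 rose and 1 fell in knockout myelomonocytes, and 5 rose in marrow. The shares called over all genes tested were 12.4% in myelomonocytes and 9.28% in marrow. dennd2b had 6.91 and 6.93 in knockout and 6.09 and 6.02 in wild-type myelomonocytes (0.86 ± 0.10, adjusted p = 0.00222), and a marrow difference of 0.72 ± 0.10. dennd6b, of the family that loads Rab14, had 8.89 and 8.71 in knockout and 7.99 and 7.97 in wild-type myelomonocytes (0.82 ± 0.10, adjusted p = 0.00257) and a marrow difference of 0.49 ± 0.10. dennd11 rose by 0.89 ± 0.12 in marrow and 0.47 ± 0.12 in myelomonocytes. For the Rab5 exchange factors of the RIN family, rin2b rose by 0.73 ± 0.15 and rin1a fell by 1.30 ± 0.25 (SE) in myelomonocytes, with 6.72 and 6.32 in knockout and 7.83 and 7.81 in wild type for rin1a. These relatives were called in opposite directions. trappc12 rose by 0.47 ± 0.11 in myelomonocytes and 0.45 ± 0.11 in marrow. Calls lost when 1 array was left out were those of rin1a without either wild-type myelomonocyte array or knockout replicate 2 (0.0679 to 0.0705), rin2b without wild-type (0.101) or knockout replicate 1 (0.0756), dennd6b in marrow without any 1 marrow array (0.0862 to 0.125), dennd11 in myelomonocytes without any array but the 2 of wild-type marrow (0.065 to 0.202), and trappc12 without 3 myelomonocyte arrays there, all but knockout replicate 2 (0.107 to 0.123), and in marrow without any array but the 2 of knockout myelomonocytes (0.0651 to 0.211).

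Among effectors and tethers 2 of 46 rose and 2 fell in knockout myelomonocytes, and 2 fell in knockout marrow. Over all genes tested, 12.4% were called in myelomonocytes and 9.28% in marrow. rilp, the Rab7 effector that brings dynein to late endosomes, had 6.95 and 7.01 in knockout and 7.52 and 7.50 in wild-type myelomonocytes (-0.53 ± 0.11, adjusted p = 0.0181), and 7.40 and 7.20 in knockout and 7.93 and 7.77 in wild-type marrow (-0.55 ± 0.11, adjusted p = 0.0202). Its knockout arrays were under the wild-type arrays in both populations. rbsn, an effector of Rab4 and Rab5, rose by 0.57 ± 0.10 and exoc3, an exocyst subunit, by 0.42 ± 0.10 in myelomonocytes, where the exocyst relative exoc3l4 fell by 1.01 ± 0.15 (SE). ocrl, an inositol phosphatase that binds several Rabs, fell by 0.77 ± 0.16 (SE) in marrow. The prenylation and extraction list was drawn by symbol, and its 2 called genes, rabac1 and rabif, need not act in those steps. Of the 6 tested genes on it, rabac1, the prenylated Rab acceptor, had 9.27 and 8.94 in knockout and 10.13 and 9.99 in wild-type myelomonocytes (-0.95 ± 0.13, adjusted p = 0.00362). Its marrow difference was -0.54 ± 0.13. On the same list rabif, placed there by its symbol, rose by 0.40 ± 0.11 in myelomonocytes. The rbsn call was lost without wild-type replicate 1 (0.0666), the exoc3 call without either wild-type array or knockout replicate 2 (0.105 to 0.146), the rabif call without any 1 array (0.0549 to 0.187) and the ocrl call without any 1 marrow array (0.0579 to 0.128). The rilp call was lost in myelomonocytes without either wild-type array or knockout replicate 1 (0.0653 to 0.0874) and in marrow without either wild-type array or knockout replicate 2 (0.0574 to 0.129), and the marrow call of rabac1 without any array but the 2 of knockout myelomonocytes (0.0556 to 0.197).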

How the data were processed

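The deposited table has a value for each of 75212 probe sets on each of 8 arrays. The authors' deposited values were taken as log2, since they run between 1.63 and 13.76. The sources used here do not say how the authors corrected, summarised or normalized them, or give a scan or hybridisation batch, so they were used unchanged. Names came from the platform annotation: 20806 had 1 symbol, 855 several and 53551 none here. Of the 76 Rab-named genes, 75 matched the RefSeq gene table of assembly GRCz12tu by Entrez ID, and 0 symbols changed.

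Each symbol was represented by its brightest probe set on average, and the 13774 genes whose mean reached the median level of the table (5.52) were tested. limma 3.58.1 in R 4.3.3 fitted 1 mean per group to all 8 arrays, with 4 residual and 4 prior degrees of freedom. Contrasts were knockout minus wild type in each population, the difference of these, and myelomonocytes minus marrow in each genotype. Tests were two-sided, adjusted by Benjamini-Hochberg over all 13774 genes and called under 0.05. SEs are those of the fit. With 2 arrays per group, their number limits the precision. Data were simulated for the myelomonocyte comparison, with 50 genes changed at each size. In them 30% of changes of 0.5 on the log2 scale and 100% of changes of 1 were called. The real comparison called 1703 genes, many more than the simulation changed, so these shares may not hold for the data.

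Role groups follow the Rab number, and partner lists follow symbol patterns. Named were the members called by genotype and up to 8 in each direction called between populations. The families of Rab5, Rab7, Rab11, Rab27, Rab32 and Rab38, Rab20 and Rab44 were named whatever their values in knockout against wild-type myelomonocytes. In the other comparisons, values of their members that were not called are given for some only. Of each partner list, up to 4 called members were named per direction in each genotype comparison. The partner genes evi5a and dennd3a are named only among the calls lost. Members and lists were chosen with earlier results of these data known. Replicate numbers recur in every group, but no label ties them together, so the fit had no replicate block. Alternatives were 2 rescalings, 2 other filters, 2 other treatments of probe sets, the block, array weights, an intensity trend, the compared arrays alone and each array left out. No sequences are shown.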

Additional observations from a re-analysis of the deposited data

How the results depend on the processing

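Of 14 genotype calls of Rab-named genes, 5 held under all alternatives tried, as did 22 of 34 population calls of named members and 10 of 30 partner calls; none of these calls changed sign. With only the compared arrays in the fit, the count of Rab GTPases called in myelomonocytes was 5 (8 as reported) and that of partner genes 10 (17). In marrow 8 GTPases were called with array weights and 8 with an intensity trend (5 as reported). Leaving out 1 array gave 4 to 8 GTPases in myelomonocytes, 2 to 6 in marrow, 13 to 23 between knockout populations (22 as reported, 13 without replicate 2 of the knockout marrow), 10 to 15 between wild-type populations (13) and 0 for the interaction, and 6 to 14 and 4 to 12 partner genes in myelomonocytes and marrow (17 and 13). The medians ranged from 0.0448 to 0.1149 in myelomonocytes and from -0.0329 to 0.0311 in marrow. The myelomonocyte count was 4 without either wild-type array and the marrow count 2 without any 1 marrow array. The population difference of rab11al in knockout fish, not called at 0.19, was -0.084 without replicate 2 and 0.4688 (called, adjusted p = 0.0415) without replicate 1 of the knockout myelomonocytes. Deviations of same-numbered arrays correlated at 0.27 between the knockout and 0.41 between the wild-type populations, at 0.09 and -0.0002 between genotypes in myelomonocytes and marrow, and at 0.12 and 0.02 in the remaining pairs; with 2 numbers this does not settle a pairing. The replicate block was 1 shift between replicate numbers, common to all 4 groups. It does not model a pairing of the populations within a genotype. With the block, counts of GTPases were 8, 6, 0, 25 and 15 (myelomonocytes, marrow, interaction, knockout and wild-type populations), and of partners 20 and 16. The block ended the myelomonocyte calls of rab11a (adjusted p = 0.0516) and tbc1d7. Quantile normalization moved the share of higher calls over all genes between wild-type populations to 58.2% (43.6% as deposited). Of the partner calls, those of rabif and tbc1d7 in myelomonocytes were each also lost under 6 other settings, dennd11 under 5, evi5a under 4, and tbc1d8b, exoc3 and trappc12 with the compared arrays alone. In marrow dennd3a was lost under 4, trappc12 and tbc1d8b under 3 and rabac1 under 2. Calls of named genes gained and not given above were those of rab11al between wild-type populations under 4 settings (adjusted p = 0.0382 to 0.0477), rab14 there after quantile normalization (0.0216), rab11fip1a in marrow without replicate 1 of the knockout marrow (0.0413), ocrl in myelomonocytes with the block (0.0471), tbc1d2b there with an intensity trend (0.0488), and rbsn in marrow after quantile normalization (0.0404). An array outside the groups compared does not enter their difference. Leaving it out changed only the residual variance, its degrees of freedom and the adjustment. The cause of the other changes was not tested.

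With 2 arrays per group, a miss at the threshold does not show equal levels. Signal over background is not given per probe set, so dim members have only a low value. The group means of rab38a and rab39bb lay under the testing limit in some groups, for rab38a in marrow only. Samples pool 4 kidneys, so fish-to-fish spread is not seen.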

Other observations

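Gene order was looked at after the data were seen. Of the 110 tested genes nearest to the 11 genotype-called Rab-named genes (5 on each side in the RefSeq order), 14.5% were called in myelomonocytes and 10% in marrow, against 12.4% and 9.28% of all genes tested. None of the 11 lay within 5 tested genes of mir142a or mir142b. Of the 10 tested genes nearest to mir142b, 5 were called in myelomonocytes and 3 in marrow. For mir142a the counts were 2 and 2 of 10. Linkage over longer stretches was not tested. rab14 was on the chromosome of mir142a or mir142b, 649 tested genes away.

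The second probe sets of rab6a and rab11bb were not called by genotype either, with differences of 0.13 and 0.19 in myelomonocytes and 0.20 and 0.31 in marrow, where the brighter probe sets gave -0.19 and 0.12 in myelomonocytes and -0.19 and 0.09 in marrow. The probe sets of rab6a thus had opposite signs in both comparisons.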
